A study of Mus musculus with 6 samples.

Results

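Glucose enters skeletal muscle through transporters of the SLC2A family, and 6 genes of this route are described here: the transporters Slc2a1, Slc2a3 and Slc2a4, the Rab GTPase-activating proteins Tbc1d1 and Tbc1d4, and the caveolar coat protein Cav3. They were chosen by gene symbol, as all probes that the platform annotation gives to these 6 of the 17711 genes named on the array, which came to 10 probes. RNA of the quadriceps femoris, a thigh muscle, was hybridised to an Illumina mouse BeadArray, 3 arrays for wild-type C57BL/6 mice and 3 for RORalpha1delDE mice of the same strain. The transgene encodes human RORalpha1, a nuclear receptor, without its E region and part of its D (hinge) region, and the human skeletal alpha-actin promoter restricts it to skeletal muscle. Both groups ate the same diet with 4.6% fat under a 12 h light cycle, were fasted overnight and were killed at 9 in the morning, and the labels give no ages.

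In resting muscle most of the glucose transporter GLUT4, the product of Slc2a4, is held in intracellular storage vesicles. Insulin, through the kinase Akt, and contraction, through AMP-activated protein kinase, phosphorylate the Rab GTPase-activating proteins TBC1D4 and TBC1D1, which releases Rab GTPases and lets the vesicles move to the surface membrane and the T-tubules. GLUT1, from Slc2a1, carries basal glucose uptake and is abundant in endothelium and nerve sheaths, and GLUT3, from Slc2a3, is the high-affinity transporter of neurons. Caveolin-3, from Cav3, builds the caveolae of the muscle fibre membrane.

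The labels number the arrays of each group separately, as 1, 2 and 3, but arrays 1 and 2 were counted here as 1 sample. Between wild-type arrays 1 and 2, differences at a pair of bright probes of one gene were almost unrelated (r = 0.0341 across 525 genes), and between transgenic arrays 1 and 2 likewise (r = 0.0316), whereas array 3 differed from its group mates in a way that such probes shared (r from 0.703 to 0.764). These r values are descriptions across genes, which do not count as independent replicates. Each group was therefore treated as 2 samples, arrays 1 and 2 averaged and array 3. This grouping rests on those r values and is not given by the labels, so values for 6 separate arrays are given beside some results. Between 13979 and 14887 probes were detected per array. Of the slow-fibre markers, all 5 kept were far lower on transgenic array 3 than elsewhere, with a summed log2 level of 11.27 against 15.61 to 16.32 in the other 3 samples. On transgenic array 3 the macrophage markers summed to 9.94 against 8.42 to 8.76. The skeletal muscle markers summed to between 17.42 and 17.53 in the 4 samples, a sum set mostly by 4 very bright probes. Des, the dimmest of the 5, was higher on all transgenic arrays, as were 12.1% of kept probes, by 0.51 ± 0.19 (adjusted p = 0.647). The detected probe of Rora read 12.19, 12.11 and 12.03 in wild type and 11.95, 12.12 and 12.54 in transgenic arrays. Whether it binds RNA of the human transgene was not tested.

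Of the 6 genes, 5 were measured: 7 of the 10 probes were detected on all 6 arrays and 3 on none. With the samples averaged, limma called 0 of the 7 kept probes at an adjusted p under 0.05, against 1 of 14420 kept probes in all (0.00693%). At an unadjusted p under 0.05 it called 1, the brighter RefSeq probe of Tbc1d1, against 7.64% of kept probes. That probe was lower in transgenic muscle, as were 4.15% of kept probes at that p. With 6 separate arrays 0 of the 7 passed as well, against 0.374% of kept probes, and again 1 of them had an unadjusted p under 0.05, against 15% of kept probes. The difference was below 0 for 5 of the 7 probes (71.4%), against 47.2% of all kept probes, and above 0 for 2. The median was -0.23 beside 0.02 over all kept probes. Adjusted p-values here and below come from limma over all kept probes, and all levels are normalised log2 intensities. Levels of different probes are not comparable with each other.

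**Figure D1:**
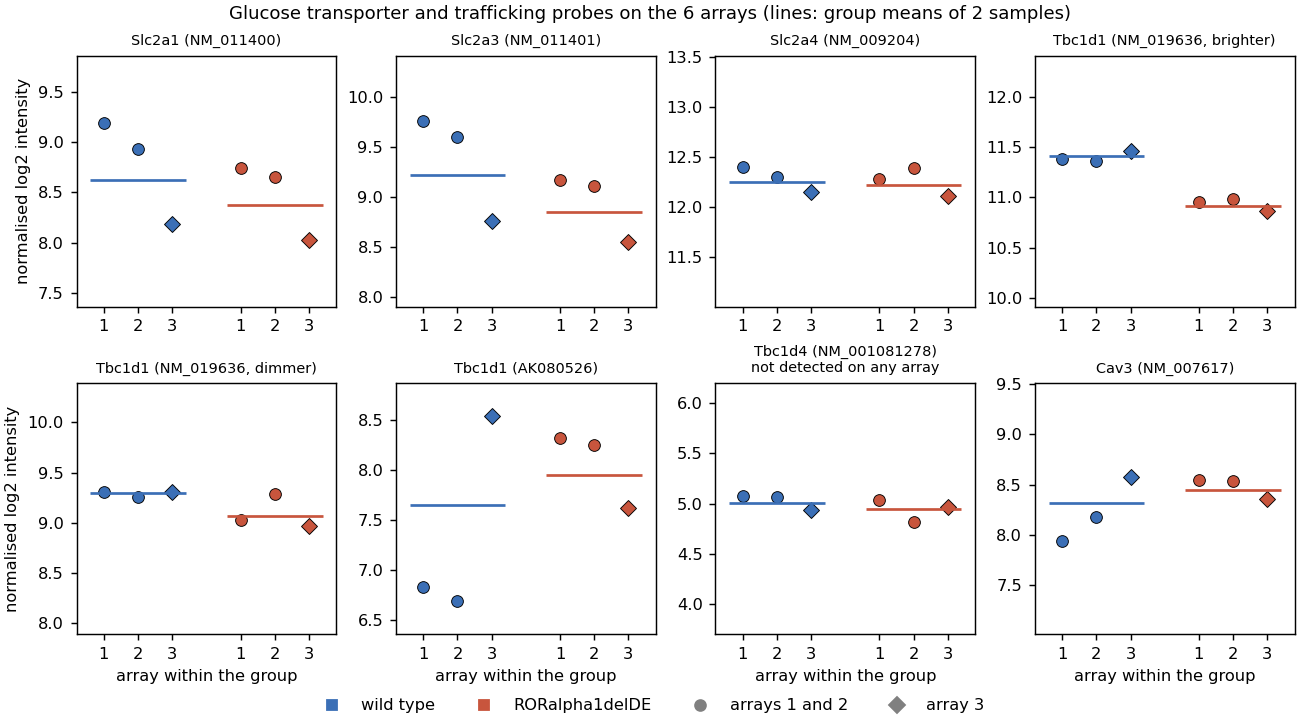
Normalised log2 intensity of the 7 detected probes and of the undetected Tbc1d4 probe on each of the 3 wild-type (blue) and 3 RORalpha1delDE (red) arrays; circles are arrays 1 and 2, diamonds array 3, lines the group means over 2 samples, and every panel spans the same range of log2 units. Only the brighter RefSeq probe of Tbc1d1 has all transgenic arrays below all wild-type arrays, and Slc2a1 and Slc2a3 are lowest on array 3 of each group.

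Slc2a4, the insulin-responsive transporter, showed the smallest difference of the 7 probes. Its probe gave deposited signals of 6207.8, 5508.7 and 4470.2 on the wild-type arrays and 5009.8, 5372.6 and 4077.5 on the transgenic arrays. After normalisation these became 12.40, 12.30 and 12.15 in wild type and 12.28, 12.39 and 12.11 in transgenic muscle. The groups overlapped fully, and array 3 was the lowest of each. The mean was 12.25 ± 0.15 in wild type and 12.22 ± 0.16 in transgenic samples (SD, n = 2 each), a difference of -0.03 ± 0.19 (log2, SE, adjusted p = 0.977). The 95% interval of the difference ran from -0.50 to 0.44, which is 0.708 to 1.35 times the wild-type level. These samples do not exclude a change within these bounds. The interval is not adjusted over all kept probes, and it is not the smallest change that the test could call. Only 9.27% of kept probes had a smaller group difference. In bulk muscle, fewer cells of a type and less RNA per cell cannot be told apart, for this and every other transcript described.

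Slc2a1 and Slc2a3 varied together, and more within the groups than between them. Slc2a1 was at 9.19, 8.93 and 8.18 on the wild-type arrays and at 8.74, 8.65 and 8.03 on the transgenic arrays. Array 3 was the lowest in both groups, and wild-type array 3 lay below transgenic arrays 1 and 2. The mean was 8.62 ± 0.62 in wild type and 8.37 ± 0.47 in transgenic samples (SD, n = 2), a difference of -0.25 ± 0.36 with a 95% interval from -1.13 to 0.62 (adjusted p = 0.876).

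Slc2a3 was at 9.76, 9.60 and 8.76 in wild type and at 9.17, 9.11 and 8.55 in transgenic muscle. Its order over the arrays matched that of Slc2a1, with wild-type arrays 1 and 2 on top and both arrays numbered 3 at the bottom. It differed by -0.37 ± 0.36 between the groups (95% interval -1.25 to 0.50, adjusted p = 0.802). Leaving out wild-type arrays 1 and 2 together brought both differences above 0, to 0.19 for Slc2a1 and 0.08 for Slc2a3, and leaving out wild-type array 3 took them to -0.69 and -0.83. Without transgenic array 3 Slc2a1 stood at 0.08 and Slc2a3 at -0.08.

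The gap between array 3 and arrays 1 and 2 was larger than the group difference for both transporters. For Slc2a1 it was -0.88 in wild type and -0.66 in the transgenic group, and for Slc2a3 -0.92 and -0.60. In wild type, 96.1% of kept probes had a smaller gap than Slc2a1 and 96.5% a smaller one than Slc2a3, and in the transgenic group 92.9% and 90.6%. Array 3 was below arrays 1 and 2 in both groups for 3 of the 7 member probes, those of the transporters, against 25.1% of kept probes. For Slc2a4 the gaps were -0.21 and -0.23. The replicate numbers were not used to pair the samples in the main fit. Deviations of same-numbered arrays from their group means had r from 0.00 to 0.06 across kept probes. These r values cannot settle whether same-numbered arrays were handled together.

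Markers of other cell types in muscle were read beside both transporters. Of the 5 nerve markers 2 were kept, and both were lower on array 3 of each group, with a gap for Pmp22 of -0.81 in wild type and -0.55 in transgenic muscle, and Mbp, a myelin protein, of -0.99 and -0.86. The nerve list summed to 11.61 and 10.76 in the wild-type samples and to 11.47 and 10.86 in the transgenic samples, the value of array 3 given second each time. Of the 6 endothelial markers all were kept, with summed levels of 12.13 and 11.85 in wild type and 11.99 and 11.97 in transgenic samples. They did not move as one: on array 3 Pecam1, Kdr and Tek were lower in both groups, Cdh5 was at -0.37 in wild type and 0.24 in the transgenic group, Vwf at -0.22 and 0.60, and Emcn at -0.01 and -0.04. Of the 3 smooth muscle markers 2 were kept and both were lower on array 3 of each group, Acta2 with gaps of -0.47 and -0.19 and Myh11 with -0.61 and -0.16. That list summed to 11.57 and 11.08 in wild type and to 11.49 and 11.30 in transgenic samples. The fibroblast list, with 4 of 4 kept, summed to 14.30 and 13.79 and to 14.08 and 14.34. The erythroid list, with 3 of 5 markers kept, summed to 14.15 and 13.61 and to 13.85 and 13.98, which is mostly Hba-a1. Another erythroid marker, Slc4a1, had gaps of 0.40 in wild type and -0.19 in the transgenic group. The kept nerve and smooth muscle markers were thus lower on array 3 of both groups, as both transporters were, and the other lists were mixed. The part of these cell types in the transporter values was not tested.

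**Figure D2:**
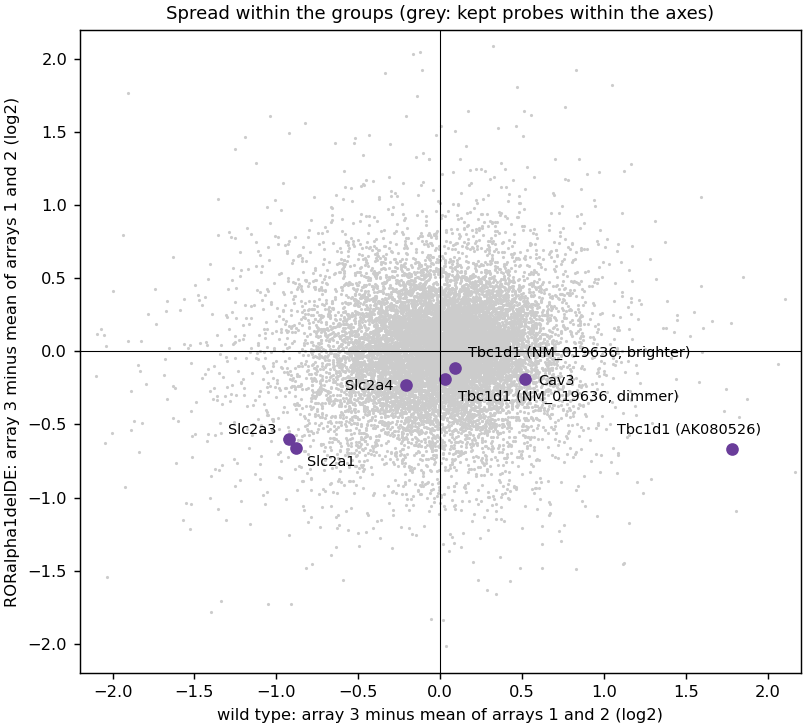
Log2 difference between array 3 and the mean of arrays 1 and 2, in wild type (horizontal axis) and in RORalpha1delDE muscle (vertical axis), for the 7 detected member probes (purple) and for kept probes (grey, 28 beyond the axis limit of 2.2 left out). Slc2a1 and Slc2a3 sit side by side at the lower left, and the AK080526 probe of Tbc1d1 lies far to the right at 1.78 and -0.67.

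Tbc1d1 is read by 5 probes, which did not tell one story. Its product keeps Rab GTPases inactive until it is phosphorylated, and in mice it is the more abundant of the pair of Rab GTPase-activating proteins in fast muscle. The brighter probe for the RefSeq transcript NM_019636 gave deposited signals of 3149.1, 3009.4 and 2805.7 in wild type and 2091.7, 2091.6 and 1792.1 in transgenic muscle. Normalised, these were 11.38, 11.36 and 11.46 in wild type and 10.95, 10.98 and 10.86 in the transgenic group. All transgenic arrays lay below all wild-type arrays, as they did for 9.76% of kept probes, and the arrays within a group differed little.

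The mean of that probe was 11.41 ± 0.06 in wild type and 10.91 ± 0.08 in transgenic samples (SD, n = 2). The difference was -0.50 ± 0.17, or 0.706 times the wild-type level, with a 95% interval from -0.93 to -0.08. It had an unadjusted p of 0.0277 and an adjusted p of 0.638, so it did not pass over all kept probes, and neither did it with 6 separate arrays (-0.47 ± 0.11, adjusted p = 0.148). Over 19 alternative settings it lay between -0.57 and -0.45. The smallest p that an exact permutation test allows is 0.1 for 3 arrays a group and 0.333 for 2 samples a group.

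The dimmer probe for NM_019636 was at 9.31, 9.26 and 9.31 in wild type and at 9.03, 9.29 and 8.97 in transgenic muscle. Transgenic array 2 reached the wild-type range, so the arrays overlapped, while both averaged samples were lower, as for 18.1% of kept probes. The difference was -0.23 ± 0.18 (95% interval -0.67 to 0.20, adjusted p = 0.762).

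The remaining detected probe, for the cDNA AK080526, gave another pattern. It read 6.83, 6.69 and 8.54 in wild type and 8.32, 8.25 and 7.62 in transgenic muscle. Wild-type array 3 was the highest of the 6 arrays, 1.78 above wild-type arrays 1 and 2, a gap larger than that of 99.7% of kept probes. Within the transgenic group array 3 was 0.67 below the others, so that the 2 groups ran opposite ways. The difference of 0.30 ± 0.57 had a 95% interval from -1.10 to 1.70 (adjusted p = 0.913), and it was 0.71 with 6 separate arrays (adjusted p = 0.508), -0.59 without wild-type arrays 1 and 2 and 1.19 without wild-type array 3. Both probes for AK122445 were detected on no array. Which Tbc1d1 transcripts each of the 5 probes reads was not tested.

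Fibre type and Tbc1d1 were set side by side. The slow-fibre markers were lowest on transgenic array 3, and on transgenic arrays 1 and 2 they summed to 16.32 against 15.81 and 15.61 in wild type. The brighter NM_019636 probe was at 10.95 and 10.98 on transgenic arrays 1 and 2 and at 10.86 on array 3. Leaving out arrays or samples gave that probe differences from -0.56 to -0.45. The value without transgenic array 3, -0.45, was the smallest in size of these. The fast-fibre list, with 5 of 6 markers kept, summed to values between 17.41 and 17.46 in the 4 samples, a sum set by 4 very bright probes. Myh1, a fast myosin and the dimmest of the 5, had a gap between array 3 and arrays 1 and 2 of 0.70 in wild type and -0.72 in the transgenic group. The part of fibre type in the Tbc1d1 values was not tested.

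Tbc1d4, also called AS160, is the Akt substrate that links insulin to GLUT4 vesicles. Its single probe did not reach detection on any of the 6 arrays, with signals of 162.0, 157.1 and 144.6 in wild type and 154.5, 131.7 and 134.3 in transgenic muscle. No level or fold is given for Tbc1d4.

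Cav3, the muscle caveolin, was measured by 1 probe. It was at 7.94, 8.18 and 8.58 on the wild-type arrays and at 8.55, 8.54 and 8.36 on the transgenic arrays. The transgenic values fell inside the wild-type range, and the wild-type arrays spread more widely, with array 3 above the others by 0.52. The mean was 8.32 ± 0.37 in wild type and 8.45 ± 0.13 in transgenic samples (SD, n = 2), a difference of 0.13 ± 0.23 (95% interval -0.44 to 0.70, adjusted p = 0.907). It was 0.25 ± 0.18 with 6 separate arrays (adjusted p = 0.54) and -0.13 without wild-type arrays 1 and 2.

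Cav3 has been described as a gene that RORalpha acts on in cultured muscle cells, so its promoter is shown. ROR receptors bind as monomers to the half-site AGGTCA, preferring bases rich in A and T before it. The RefSeq table of build GRCm38.p6 holds promoters for 4 of the 6 genes, namely Cav3, Slc2a1, Tbc1d4 and Tbc1d1, which has a pair of starts. In the 250 bases before each start, searched on both strands, AGGTCA occurs in 1 of these 5 windows, that of Cav3, against 4607 of all 32851 windows of that length. The window, chr6:112459255-112459504 on the plus strand, is printed with the half-site in capitals:
Cav3: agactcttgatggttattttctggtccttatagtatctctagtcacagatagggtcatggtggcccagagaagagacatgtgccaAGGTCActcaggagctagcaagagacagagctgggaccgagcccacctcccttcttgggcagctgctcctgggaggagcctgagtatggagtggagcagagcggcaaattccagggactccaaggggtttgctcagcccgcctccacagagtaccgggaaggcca
The half-site is followed by 159 bases before the annotated start. The bases printed just before the half-site, gtgcca, hold more G and C than A and T. TAGGTCA, the match with a T before the half-site, is found in 2.23% of windows and not in that of Cav3. With an A before the half-site, as here, the match AAGGTCA is found in 4.08% of windows. The match says nothing on whether the receptor binds there, and the Cav3 probe showed no difference beyond the spread between samples.

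**Figure D3:**
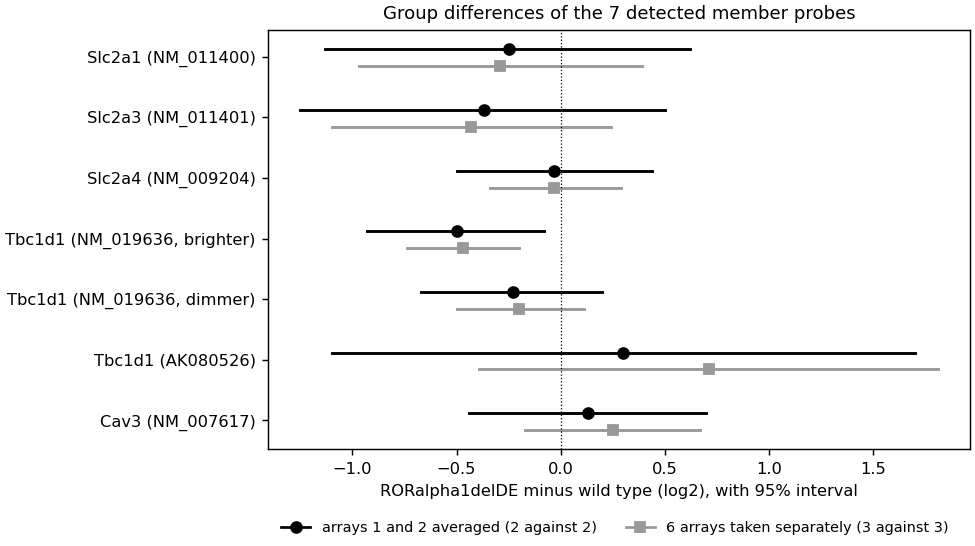
Difference between RORalpha1delDE and wild type (log2, horizontal axis) for the 7 detected member probes, with 95% intervals from limma; black circles are the fit with arrays 1 and 2 averaged, grey squares the fit to 6 separate arrays. Only the interval of the brighter NM_019636 probe of Tbc1d1 lies wholly below 0, from -0.93 to -0.08, before adjustment over all kept probes.

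The other genes of the route were read from 8 lists with 100 genes, of which 94 had a probe and 73 a kept one. With limma 0 of the 73 passed over all kept probes in either direction, and also 0 with 6 separate arrays. At an unadjusted p under 0.05 stood 4 of them, which is 5.48%, beside 7.12% of all 8397 kept genes. Of the 73 genes 46 were above 0 and 27 below (37%), beside 42.5% of all kept genes below 0. The median was 0.13 beside 0.04 over all kept genes. Each gene is given by its brightest kept probe.

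Of 9 other hexose transporters 8 had a probe, and 7 of these were not kept. Slc2a8, an intracellular hexose transporter, was the exception, with 1 of its 3 probes kept. Its other probes were each detected on 0 wild-type arrays and 1 transgenic array. The kept probe read 7.92, 7.77 and 7.78 in wild type and 7.71, 7.93 and 8.33 in transgenic muscle. The groups overlapped, and its difference was 0.27 ± 0.23 (adjusted p = 0.782). Of the SLC2A genes listed, those kept in this muscle were thus Slc2a1, Slc2a3, Slc2a4 and Slc2a8.

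Vesicle cargo and sorting genes had a median of 0.14 over 11 kept members, 8 above 0. Sort1, the sortilin that helps form GLUT4 storage vesicles, was at 11.55, 11.86 and 11.92 in wild type and at 12.11, 12.17 and 12.53 in transgenic muscle. Both transgenic samples lay above both wild-type samples, as for 21.6% of kept probes, and the difference was 0.52 ± 0.21 (adjusted p = 0.647). Its dimmer probes gave -0.02 and 0.67, the latter at a mean level of 6.00 and detected on only 3 arrays. Aspscr1, which encodes the tether TUG that retains GLUT4 vesicles, differed by 0.40 ± 0.21 (adjusted p = 0.692).

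Docking and fusion genes had a median of 0.24 over 12 kept members, 9 above 0. Exoc7, a subunit of the exocyst that tethers vesicles at the membrane, was the member with the smallest p. It was at 12.38, 12.55 and 12.43 in wild type and at 11.72, 11.68 and 12.14 in transgenic muscle. All transgenic arrays lay below the wild-type arrays, as for 9.76% of kept probes. The difference was -0.53 ± 0.21 (adjusted p = 0.647), and a dimmer Exoc7 probe gave -0.32. Vamp3, a vesicle SNARE, differed by 0.36 ± 0.17 (adjusted p = 0.664).

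Among Rab and Ral GTPases and motors the median was 0.03 over 15 kept members, and this list held both the lowest and the highest difference of the 73 genes. Myo5a, a myosin motor of vesicle transport, read 7.86, 7.38 and 6.64 in wild type and 5.42, 6.07 and 5.99 in transgenic muscle, where it was detected on 2 of 3 arrays. The difference was -1.27 ± 0.34 (adjusted p = 0.583), and its dimmer probes gave -0.37 and -0.28, the latter detected on only 3 arrays. Rala, a GTPase that engages the exocyst in GLUT4 delivery, read 8.01, 7.74 and 8.38 in wild type and 9.01, 8.97 and 8.80 in transgenic muscle. All transgenic arrays lay above the wild-type arrays, as for 12.1% of kept probes. Its difference was 0.76 ± 0.23 (adjusted p = 0.622).

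Caveolar genes had a median of 0.11 over 11 kept members, 6 above 0 and 5 below, and a range from -0.26 to 0.35. The smallest p-values were those of Flot2, a flotillin of membrane rafts, at 0.31 ± 0.18 (adjusted p = 0.71), and Pacsin3, a membrane-bending protein of muscle caveolae, at 0.35 ± 0.20 (adjusted p = 0.716). The dimmer probes of Pacsin3 gave 0.52 and 0.34, and that of Flot2 0.08.

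Kinases and adaptor proteins that act on TBC1D1 and TBC1D4 had a median of 0.00 over 10 kept members. They lay between -0.11 and 0.31, with Prkab2, a regulatory subunit of AMP-activated protein kinase, at 0.31 ± 0.18 (adjusted p = 0.718) and the adaptor Ywhag at 0.24 ± 0.18 (adjusted p = 0.763). A dim Ywhag probe, detected on only 3 arrays, gave -0.49.

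Regulators of transporter transcription or turnover had a median of 0.19 over 10 kept members. Hdac4, a histone deacetylase that holds back the muscle factor MEF2, read 10.08, 10.17 and 10.41 in wild type and 10.79, 10.73 and 10.83 in transgenic muscle. All transgenic arrays lay above the wild-type arrays, as for 12.1% of kept probes, and the difference was 0.53 ± 0.19 (adjusted p = 0.645). Txnip, an arrestin-like protein that lowers GLUT1 and GLUT4 at the surface, read 14.60, 14.68 and 14.62 in wild type and 14.39, 14.22 and 14.14 in transgenic muscle. The difference was -0.40 ± 0.18 (adjusted p = 0.661). Hexokinases trap glucose inside the cell by phosphorylation, and 3 were kept. Hk1 was at -0.16 ± 0.18 (adjusted p = 0.832) and Hk2, the insulin-responsive form, at -0.00 ± 0.17 (adjusted p = 0.999). Hk3, at 0.11 ± 0.20 (adjusted p = 0.909), was dim, with a mean level of 5.93, and was detected on 2 of 3 transgenic arrays.

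**Figure D4:**
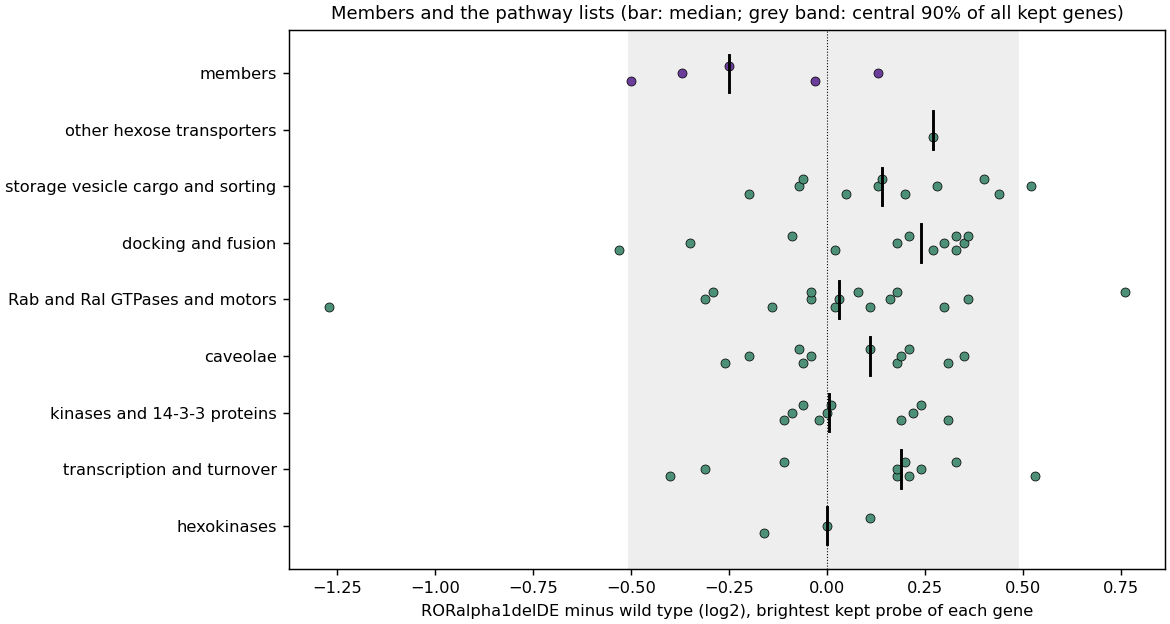
Difference between RORalpha1delDE and wild type (log2, horizontal axis) for each kept gene of the members (purple) and of the 8 pathway lists (green), by its brightest kept probe; bars are list medians and the grey band holds the central 90% of all kept genes, -0.50 to 0.49. Myo5a at -1.27 and Rala at 0.76 lie farthest from 0, and none passed the test.

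The transcripts most like each member over the 6 arrays were named from 4363 bright kept probes by Pearson's r, as a description over 6 points that come from 4 samples. For Slc2a1 they were Pecam1, an endothelial adhesion molecule (r = 0.995), Rab3gap1 and Lims2. For Slc2a3 they were Plin4, a lipid droplet coat protein (r = 0.998), Rab3gap1, which it shared with Slc2a1, and Mterf3. Pecam1 read 10.40, 10.27 and 9.81 in wild type and 10.11, 10.13 and 9.73 in transgenic muscle, lowest on array 3 of each group as Slc2a1 was. Among the other endothelial markers, Tek and Kdr were also lower on array 3 of both groups. Their gaps in wild type and transgenic muscle were -0.37 and -0.42 for Tek and -0.29 and -0.26 for Kdr. Cdh5 and Vwf were instead higher on transgenic array 3 than on transgenic arrays 1 and 2, and Emcn hardly moved. The part of endothelium in the Slc2a1 values was not tested.

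For Slc2a4 the nearest were Map1lc3b, an autophagosome protein (r = 0.987), Pdia3 and Rcan2. The brighter NM_019636 probe of Tbc1d1 had its highest r with Nde1 (r = 0.995), Plin2, a lipid droplet coat protein (r = 0.993), and Cidea, which enlarges lipid droplets in brown fat (r = 0.988). That probe differed more between than within the groups, so its r over all arrays is set mostly by the group difference. Wild-type array 3 stood 0.98 above wild-type arrays 1 and 2 for Cidea and 0.09 above them for the probe. Cidea read 10.84, 10.86 and 11.83 in wild type and 7.14, 7.52 and 7.27 in transgenic muscle. It is one of the brown adipocyte markers, whose list of 2 summed to 12.67 and 13.34 in wild type and to 7.63 and 7.54 in transgenic samples, with Ucp1 detected on none of the transgenic arrays. Of the 7 adipocyte markers 2 were kept, and they summed to 11.74 and 12.32 in wild type and to 9.82 and 11.68 in transgenic samples. The part of fat cells in the Tbc1d1 values was not tested.

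The dimmer NM_019636 probe was nearest to Tacc1 (r = 0.975), Trappc12 and Nfic, and the AK080526 probe to Pisd-ps3 (r = 0.996), Vgll2 and Chchd4. For Cav3 the nearest were Uqcc2, an assembly factor of respiratory complex III (r = 0.994), Myl12a and Tigar.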

How the data were processed

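Per the labels, total RNA of 6 muscle samples was labelled with biotin and hybridised to 6 arrays of 1 chip, wild type first, so chip position and genotype cannot be told apart. The authors' deposited signal table holds linear bead intensity values. The submitters' processing notes name BeadStudio 2.3.41, and no source used here gives its background setting. The deposited detection p-value columns, so named per the file headers, rise with signal and were read as 1 minus the p-value. The authors' other table is on a log2 scale: the signal's log2 after removal of a constant per array and of each probe's median.

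In the deposited table the signal rows were displaced by 0 to 21 rows against the probe names. They were returned by matching to the log2 table (tolerance 0.002), which placed 46611 of 46632 probes and left 21 unused. Detection values then followed signals (Spearman's rho at least 0.999962 across probes). Intensities went through neqc of limma 3.58.1 (normexp correction, offset 16, quantile normalisation, log2) in R 4.3.3, with Python 3.11.15 for the tables. The 14420 kept probes had a detection p under 0.05 on 3 or more arrays. Probe symbols came from the platform annotation (29976 probes with 1 symbol, 10 with several, 16646 with none here) and a RefSeq table of GRCm38.p6.

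The group comparison used limma's moderated two-sided test (lmFit, eBayes) with Benjamini-Hochberg adjustment over kept probes and a threshold of 0.05, with arrays whose differences were not shared by probes of one gene (r under 0.1) averaged. The fit was tested on simulated data with independent samples and known changes larger than any member difference. That test does not cover changes of the members' size or the averaging of arrays. Whether the arrays hold RNA of separate mice is not stated in the labels. The p-values therefore measure spread between these samples only, and it may be technical. The small number of arrays limits the precision. Alternatives were 6 separate arrays, a random block, a replicate block, offset 50, no background correction, median centring, the deposited log2 values, other filters, an intensity trend, and leaving out arrays or samples.

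Named genes were all member probes, the 2 genes of smallest p in each list, and the 3 genes most like each detected member probe among probes with a mean above 9. Hk2, Klf15, Rora and the cell type markers were named outside this rule. The members and lists were chosen with earlier results of these data known. Of the listed genes, 1 could not be matched to a mouse symbol.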

Additional observations from a re-analysis of the deposited data

How the results depend on the processing

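All 7 member probes stayed past no threshold under every one of the 19 alternatives. The brighter and dimmer NM_019636 probes of Tbc1d1 kept their direction throughout. The other probes turned only where an array or sample was left out: without transgenic replicate 3, Slc2a1 and Slc2a4 both to 0.08; without wild-type replicates 1 and 2, Slc2a1 to 0.19, Slc2a3 to 0.08, Slc2a4 to 0.07, Cav3 to -0.13 and the AK080526 probe of Tbc1d1 to -0.59; and without transgenic replicates 1 and 2, the AK080526 probe to -0.03. Over all alternatives Slc2a1 ran from -0.69 to 0.19, Slc2a3 from -0.83 to 0.08, Slc2a4 from -0.15 to 0.08 and Cav3 from -0.13 to 0.39. The count of all probes past the threshold, 1 lower, became 54 (20 higher, 34 lower) when the 6 arrays were kept separate and 13 (5 and 8) when the RNA sample was a random block. An offset of 50 gave 9 (3 and 6), leaving the background uncorrected 8 (3 and 5), centring on medians 3 (1 and 2), the log2 values as deposited 7 (2 and 5) and a trended prior 10 (3 and 7). Among probes detected on every array limma called 0, with 919 at an unadjusted p under 0.05. Leaving out arrays or samples gave 1 to 18, with 8 without transgenic replicate 3 and 18 without transgenic replicates 1 and 2. The cause of these shifts was not tested. The lone sample of a group is then assumed to vary like the others. The replicate block with 6 arrays gave 15 (5 and 10) and the brighter Tbc1d1 probe -0.47 (adjusted p = 0.218); on the averaged samples, an alternative chosen after seeing the data, it gave 1. Deviations of same-numbered arrays from their group means had r of 0.00, 0.02 and 0.06 across kept probes. Of the pathway genes 0 passed under any alternative. Signals near background limit Tbc1d4, both AK122445 probes of Tbc1d1 and most other hexose transporters, for which no difference could be measured.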

Other observations

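Klf15, a transcription factor of the fasting response that raises Slc2a4 transcription, was named after its values were seen. It read 10.11, 10.18 and 9.00 on the wild-type arrays and 9.62, 9.47 and 8.98 on the transgenic arrays. Array 3 was the lowest of each group, with a gap of -1.15 in wild type and -0.57 in the transgenic group. Array 3 was also below arrays 1 and 2 in both groups for Slc2a1 and Slc2a3, and for 25.1% of kept probes. The group difference of Klf15 was -0.31 ± 0.41 (adjusted p = 0.859).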
